A study of Mus musculus with 24 samples.

Results

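The entries described here are the mouse genes named Zfp followed by a number, as counted in bulk RNA-seq of liver. The members were chosen by symbol and by a sum of at least 100 counts over the 24 libraries, with 2 symbols left out by the rule. Of 335 such symbols considered, 290 had at least 1 count, 45 had 0 counts and 27 passed the minimum. Those 27 of the 24421 entries in the table held 11254 of 8606009 counts, 0.1308% of the total and 67.32% of the counts of the 335. The sum over all libraries chose the members, so their overall abundance is a description and supports nothing. Just inside the minimum were Zfp428 with 101 counts, Zfp750 with 111 and Zfp207 with 112, and just outside were Zfp36 and Zfp747 with 99 each and Zfp787 with 97.

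A zinc finger of the C2H2 kind is a short fold in which a pair of cysteines and a pair of histidines hold a zinc ion, and tandem arrays of such fingers read DNA, or less often RNA, in a sequence-specific way. Many of these proteins also carry a KRAB domain, which recruits the corepressor Trim28, the histone methyltransferase Setdb1 and heterochromatin proteins, and is best known for silencing transposable elements and keeping imprints. Others have taken up different tasks: Zfp598 is an E3 ubiquitin ligase that senses collided ribosomes, Zfp622 acts in the maturation of the large ribosomal subunit, Zfp207 binds the spindle checkpoint protein Bub3, Zfp473 takes part in histone pre-mRNA processing, and Zfp36 (tristetraprolin) is a CCCH protein that speeds the decay of AU-rich mRNAs. Transcripts of these genes are scarce in most tissues, liver included.

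The study asked how a diet and an inhaled solvent act on mouse liver, alone and together. Male C57Bl/6J mice ate a control diet low in fat (CD, 13%) or a Western diet rich in it (WD, 42%), and breathed clean air or vinyl chloride (VC) at about 0.85 ± 0.1 ppm for 6 hours a day, 5 days a week, for 12 weeks. One set was killed at once and the other after a further 9 months of housing, with or without Western diet. The 8 groups of 3 libraries are w12_CD, w12_CD+VC, w12_WD and w12_WD+VC at 12 weeks, and m12_CD, m12_CD+VC, m12_WD and m12_WD+VC at 12 months. The groups without VC in their name breathed air. All animals were fasted for a few hours and anesthetized with ketamine and xylazine before tissue was taken, and the sources used here do not give their ages. VC was given only in the opening 12 weeks, so the 12-month VC groups had been exposed long before, and the time comparisons hold age, housing and, on Western diet, further feeding together. The labels do not say that replicates are separate animals, and any p-value then measures only how far these libraries spread, which may be technical.

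Depth was low. The third w12_WD library held 607 counts in all, with 4 counts over 3 members (1 each for Zfp335 and Zfp622 and 2 for Zfp871), and the other 23 held 126160 to 962493. The small library was kept in the fitted model and left out of the CPM means, so w12_WD means have n = 2 and the other groups n = 3. Levels are given as CPM, with the library total scaled by TMM (edgeR's trimmed mean of M-values) as the denominator. In the 23 libraries a count of 0 allowed a level of up to 3.093 to 25.49 CPM (3 counts), which covers counting error only. Hepatocyte markers were counted in every group (11 of the 12 listed were in the table, all with counts). Their summed level ran from 6220 to 39800 CPM. This sum was thus at most a few percent of a library's scaled total, and the reason for its size was not tested. At 12 months it moved with the groups, with means of 11900 CPM in m12_CD, 13600 in m12_WD+VC, 23600 in m12_WD and 30500 in m12_CD+VC. The summed level of 15 macrophage markers was highest in m12_WD, at 638 to 842 CPM, and next in m12_WD+VC, at 371 to 600, ahead of m12_CD+VC with 229 to 346 and m12_CD with 96.4 to 172. The other lists were also highest in m12_WD and next in m12_WD+VC by their means. Endothelial and stellate markers summed to 125 to 180 CPM in m12_CD, 327 to 431 in m12_WD+VC and 433 to 474 in m12_WD, cholangiocyte markers to 0 to 6.39, 0 to 19.5 and 16.1 to 26.8, and lymphocyte markers to 0 to 4.88, 7.43 to 34.4 and 7.56 to 37.1. Of the lymphocyte markers, Cd3d, Cd8a and Nkg7 were at 0 in all 3 of these groups. In bulk tissue, fewer cells of a type and less RNA per cell cannot be told apart.

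Most counts in this table lay on entries whose exons overlap those of a gene on the other strand, and the reason was not tested. Of the entries, 5800 have an exon that overlaps an exon of a gene on the other strand, and these held 78.5716% of all counts, while the 18204 without such an overlap held 19.7374%. The share held by entries without an overlap also moved with the groups: m12_CD had 15.61% ± 3.56, m12_WD+VC 20.68% ± 2.41, m12_WD 25.9% ± 3.89 and m12_CD+VC 26.62% ± 4.63 (SD, n = 3). The sources used here do not give the strand setting behind the counts, so reads from a member and from a gene on its other strand cannot be told apart. For the same reason it is not known, for any member, whether its counts are reads from its own strand, and this holds for Zfp867 and Zfp598 too, which overlap nothing. Of the 27 members, 16 have an overlap and 11 do not, against 76 and 259 of the 335 considered. The 2 classes are kept apart below, and the part of the shifting share in any result was not tested.

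Counts were unevenly spread over the members. Zfp335, also known as NIF-1, a transcriptional regulator needed in neural progenitors and in T cell maturation, had 4423 counts, 39.3% of the members' total. With Zfp784 at 1274 and Zfp710 at 785, the top 3 made up 57.6%. Only Zfp867, with 662, was also above 600, and 18 members had under 200, around a median of 151. Per kilobase of exon, in median CPM over the 23 libraries, Zfp335 led at 127, ahead of Zfp784 at 75.1, Zfp867 at 22.5 and Zfp710 at 12.5. Next came Zfp872 at 8.66, Zfp428 at 8.52 and Zfp511 at 8.28, and the lowest was Zfp106, an RNA-binding protein with 10429 bases of exon, at 1.42. Zfp428 owed its place in that order to a short transcript of 1308 exon bases, since its median level of 11.1 CPM, not divided by length, was the second lowest of the members after Zfp750 at 8.36.

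The members' share of a library varied little. It ran from 0.09829% to 0.1537% in the 23 libraries, with group means between 0.1109% ± 0.017 in m12_CD+VC and 0.1427% ± 0.0119 in m12_WD+VC. Leaving out Zfp335, the same means were 0.07013% ± 0.00836 and 0.08481% ± 0.0121. In m12_WD the share was 0.1357% ± 0.00968 with Zfp335 and 0.08798% ± 0.0131 without it, against 0.1189% ± 0.00819 and 0.06844% ± 0.0107 in m12_CD (SD, n = 3 each). These are raw shares of the counts in a library and were not tested. No group was the extreme for most members: w12_CD+VC had the highest mean for 7 of 27 and m12_CD+VC the lowest for 7, followed by m12_WD with the lowest for 5.

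**Figure D1:**
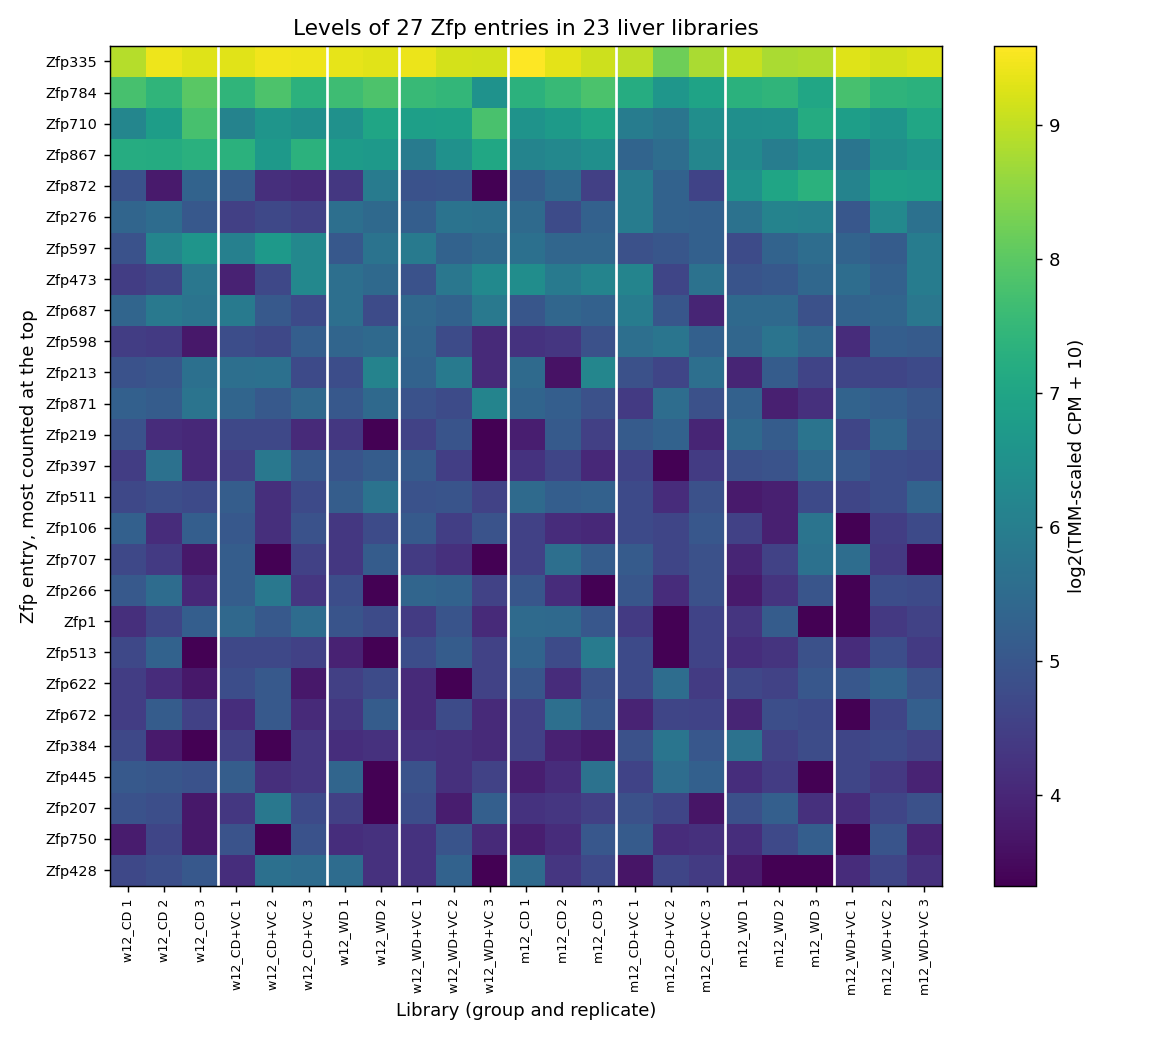
Level of each of the 27 members (rows, most counted at the top) in 23 liver libraries (columns, by group and replicate, white lines between groups), as log2(TMM-scaled CPM + 10), with w12_WD replicate 3 left out for its 607 counts. Zfp335 is the brightest row in all 23 libraries, at 288 to 762 CPM, and Zfp872 brightens in the 6 libraries of Western diet at 12 months.

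The members differ in build. In sequences translated from the annotated coding exons, 26 of 27 held at least 1 match to the finger pattern of 2 cysteines and 2 histidines, with a median of 8 matches, against a median of 11 among 304 other entries of the name. Zfp473 had most at 16, followed by Zfp871 at 15, and by Zfp335 and Zfp672 at 13. Zfp428 and Zfp598 had 1 each, and Zfp750, a regulator of epidermal differentiation, had 0. A match to the KRAB domain was found in 9 of 27 members (33.3%) and in 151 of the 304 others (49.7%); the pattern was loosened after seeing the members. The 9 are Zfp1, Zfp213, Zfp266, Zfp445, Zfp473, Zfp707, Zfp867, Zfp871 and Zfp872, of which Zfp445 is known for keeping imprints. The members lie on 13 chromosomes, with 5 on chromosome 7 and 4 on chromosome 11, and 0 of them starts within 1 Mb of another.

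Promoters are shown for the 4 members that passed a test below, so that their sequences can be set beside their levels. Each is the 250 bases before a RefSeq start on GRCm38.p6, read 5′ to 3′ on the strand of the gene. Capitals mark a match on either strand to the GC box GGGCGG, the box named CCAAT, the TATA box TATAAA, the nuclear receptor site AGGTCA or the E-box CACGTG.
Zfp872, chr9:22187916-22188165, plus strand: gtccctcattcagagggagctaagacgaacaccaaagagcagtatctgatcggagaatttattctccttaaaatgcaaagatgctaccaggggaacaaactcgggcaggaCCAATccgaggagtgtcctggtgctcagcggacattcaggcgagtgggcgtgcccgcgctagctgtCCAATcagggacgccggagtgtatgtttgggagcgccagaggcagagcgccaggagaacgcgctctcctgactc
Zfp428, chr7:24506837-24507086, plus strand: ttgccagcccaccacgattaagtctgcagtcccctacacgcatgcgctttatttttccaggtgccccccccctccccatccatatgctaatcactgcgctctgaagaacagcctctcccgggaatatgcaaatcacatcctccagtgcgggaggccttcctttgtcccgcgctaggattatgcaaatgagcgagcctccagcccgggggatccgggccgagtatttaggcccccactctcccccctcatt
Zfp867, chr11:59472475-59472724, minus strand: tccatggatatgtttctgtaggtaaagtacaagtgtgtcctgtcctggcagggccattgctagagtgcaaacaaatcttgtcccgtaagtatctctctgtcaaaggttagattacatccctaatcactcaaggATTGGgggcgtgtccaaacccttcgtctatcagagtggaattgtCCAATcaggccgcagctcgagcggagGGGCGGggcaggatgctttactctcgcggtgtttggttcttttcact
Zfp598, chr17:24669437-24669686, plus strand: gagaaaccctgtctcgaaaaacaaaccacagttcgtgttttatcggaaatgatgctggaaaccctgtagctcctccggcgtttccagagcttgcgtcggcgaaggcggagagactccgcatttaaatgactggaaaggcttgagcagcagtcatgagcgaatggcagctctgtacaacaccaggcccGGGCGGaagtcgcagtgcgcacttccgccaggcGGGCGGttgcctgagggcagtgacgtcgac
The Zfp872 window held CCAAT alone of the 5 motifs, Zfp867 held CCAAT and GGGCGG, Zfp598 held GGGCGG and Zfp428 held none of them. Over the 34 windows of the 23 members found in the table of promoters, GGGCGG was in 55.9%, against 32.7% of all 32851 windows. CCAAT was in 47.1% against 33.8%, TATAAA in 5.88% against 12.4%, AGGTCA in 17.6% against 14% and CACGTG in 5.88% against 6.02%. Member windows had a median GC content of 59.8%, and all windows one of 52.4%, so base composition differed along with the motifs. A match is a description of letters and says nothing of a bound factor.

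Of the 27 members, 19 passed edgeR's filter on low counts and were tested, 11 with and 8 without an overlap on the other strand, among 4198 entries tested in all. The 8 not tested were Zfp106, Zfp207, Zfp266, Zfp384, Zfp511, Zfp513, Zfp672 and Zfp750. None of the Zfp-number symbols outside the 27 was tested either. A member with low counts could pass the filter through 1 group where it was high, so counts and medians over the 19 are no support for a statement about all 27. Each difference below is a log2 fold change from edgeR's quasi-likelihood test in a model of all 8 groups, with Benjamini-Hochberg adjustment over the 4198 entries, and called means an adjusted p under 0.05.

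Any difference among the 8 groups was called for 3 of 19 members, against 29.7% of all entries. These were Zfp872 (adjusted p = 7.4e-05), Zfp867 (adjusted p = 0.00528) and Zfp428 (adjusted p = 0.0434), by edgeR's test over the 7 degrees of freedom between groups. The call on Zfp428 was lost in 11 of 29 alternatives, with adjusted p of up to 0.25: under RLE size factors, the replicate block and DESeq2, and without w12_CD+VC replicate 2 or 3, w12_WD replicate 1 or 3, m12_WD replicate 2 or 3, or m12_WD+VC replicate 1 or 3. That on Zfp867 was lost in DESeq2 (adjusted p = 0.0545). A further 3, Zfp276, Zfp598 and Zfp597, had an unadjusted p under 0.05, with adjusted p of 0.0625, 0.0625 and 0.1. Of all 4198 entries, 1749 had an unadjusted p under 0.05 in this test. DESeq2's likelihood ratio test called 2, Zfp872 and Zfp622. Zfp622 had 1 count in the library of 607 counts, which scales to 447.7 CPM, and 0 to 36.9 CPM in the other 23.

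At 12 weeks 0 members were called in any comparison. Western diet in air called 0 of 19 (0.0238% of all entries), Western diet with VC called 0 (0.524%), VC on control diet called 0 (0%), VC on Western diet called 0 (0%), and the interaction of diet and VC called 0 (0.0238%). At an unadjusted p under 0.05 edgeR found 1, 3, 1, 0 and 1 members of 19 in these 5 comparisons. Over all 4198 entries it found 237, 450, 170, 235 and 186. DESeq2 called 0 members in each. The largest difference among the members with an unadjusted p under 0.05 was that of Zfp598. It was higher on Western diet in air by 1.85 on the log2 scale, with an adjusted p of 0.755. Few entries of any kind were called at this time, so the members' 0 sits beside a background of at most 0.524%.

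At 12 months, Western diet in air was the comparison with most calls. Zfp872 and Zfp598 were higher on Western diet and Zfp428 was lower, 3 of 19 members (15.8%), against 24.5% of all entries, and no difference between these shares is claimed. Of the 19, 12 had a fitted difference below 0. Their median was -0.25 beside 0.11 over all entries, but it turned to 0.13 under RLE size factors, which also moved the median of all entries by 0.39. Over entries without an overlap on the other strand the median was 0.48, and over those with one -0.16. All the marker lists above, hepatocyte markers among them, were higher in m12_WD than in m12_CD, and their part in the members' differences was not tested.

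Zfp872 is a KRAB zinc finger gene on chr9:22188090-22202123, plus strand, with 12 finger matches. Its exons overlap the antisense gene 1810064F22Rik over 6.39% of their bases, and that gene had 6 counts in the whole table. In m12_CD the libraries read 26.3, 34.1 and 12.8 CPM for Zfp872, and in m12_WD 79.4, 119 and 150 CPM. Every Western diet library thus lay above every control diet library. The mean rose from 24.4 ± 10.8 to 116 ± 35.2 CPM (SD, n = 3), a log2 difference of 2.22 (SE 0.545, adjusted p = 0.0035, edgeR), or 4.66-fold. The call held in 29 of 29 alternatives, with adjusted p between 0.00172 and 0.0315. With VC, m12_CD+VC libraries read 52.5, 29.5 and 13.9 CPM and m12_WD+VC libraries 59.4, 108 and 104. Those groups did not overlap either, but the lowest of one and the highest of the other lay close together. The difference of 1.52 (SE 0.553) did not pass (adjusted p = 0.166). The diet effect was not shown to depend on VC at 12 months, with an interaction of -0.70 (SE 0.781, adjusted p = 0.575).

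At 12 weeks the means of Zfp872 were 17.7 ± 13.1 CPM in w12_CD, 13.4 ± 10.7 in w12_CD+VC and 13.7 ± 11.9 in w12_WD+VC (SD, n = 3), and the 2 w12_WD libraries read 10.4 and 51.0 CPM, the latter above every m12_CD library. Between 12 weeks and 12 months on Western diet it was higher by 2.31 in air (SE 0.698, adjusted p = 0.0226, edgeR) and by 2.53 with VC (SE 0.609, adjusted p = 0.0332). Both calls leaned on single libraries: the first was lost without w12_WD replicate 1 or m12_WD replicate 3 and under TMM over entries without an overlap, and the second without any of the w12_WD+VC replicates or without m12_WD+VC replicate 2 or 3, with adjusted p of up to 0.384 and 0.255. On control diet the differences with time were 0.46 (SE 0.665, adjusted p = 0.808) in air and 1.07 (SE 0.679, adjusted p = 0.33) with VC. Whether the change with time depended on diet was tested after the values were seen, and gave 1.86 (SE 0.983, adjusted p = 0.251) in air and 1.45 (SE 0.941, adjusted p = 0.657) with VC. The macrophage, endothelial and stellate, cholangiocyte and lymphocyte lists were all highest in the same 2 groups as Zfp872, m12_WD and m12_WD+VC, and their part in the Zfp872 result was not tested.

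Zfp428 is a small gene on chr7:24507006-24515682, plus strand, with 3 exons, and its exons overlap AC161166.1 on the other strand over 17.66% of their bases. Its counts were 8, 4 and 5 in m12_CD and 2, 0 and 0 in m12_WD, or 35.0, 9.75 and 16.0 CPM against 3.78, 0 and 0 CPM. No m12_WD library reached the lowest m12_CD library. The groups' summed counts, scaled by depth, differed 17.3-fold, with an exact 95% interval of 4.1 to 154 that covers counting error only. The edgeR difference passed (adjusted p = 0.00772) and held in 29 of 29 alternatives, but its size depends on the prior count added to the zeros. Against w12_WD, at 36.3 and 8.50 CPM, the ratio was 28.7 (6.67 to 258), and the call (adjusted p = 0.00901) was lost without w12_WD replicate 1, with adjusted p = 0.471. m12_WD+VC libraries held 1, 10 and 3 counts, a ratio to m12_WD of 11.6 (2.66 to 105), which did not pass (adjusted p = 0.268). The interaction of diet and VC missed the threshold (adjusted p = 0.0514), as did that of diet and time in air (adjusted p = 0.0544), both with edgeR.

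Zfp598 lies on chr17:24669687-24682016, plus strand, has 11 exons and overlaps no exon on the other strand. The m12_CD libraries read 8.76, 9.75 and 19.2 CPM, and the m12_WD libraries 32.1, 43.6 and 33.0 CPM. These groups did not overlap. The mean rose from 12.6 ± 5.74 to 36.2 ± 6.37 CPM (SD, n = 3), a difference of 1.48 (SE 0.545, adjusted p = 0.0438, edgeR), and this call was lost in 25 of 29 alternatives, with adjusted p of up to 0.227. In m12_CD+VC the mean was 37.0 ± 8.36 CPM, and in m12_WD+VC 19.7 ± 10.7. The difference with VC on control diet was 1.48 (SE 0.576, adjusted p = 0.104), and the interaction of diet and VC -2.18 (SE 0.763, adjusted p = 0.0609), neither of which passed. The order of the 12-month means followed that of the share of counts on entries without an overlap, given above, with m12_CD+VC first, m12_WD and m12_WD+VC next and m12_CD last, and also that of the hepatocyte markers. Their part in the Zfp598 values was not tested. At 12 weeks Zfp598 had means of 8.72 ± 4.71 CPM in w12_CD, 20.1 ± 5.73 in w12_CD+VC and 18.3 ± 12.3 in w12_WD+VC, and 31.1 and 34.0 CPM in the 2 w12_WD libraries.

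**Figure D2:**
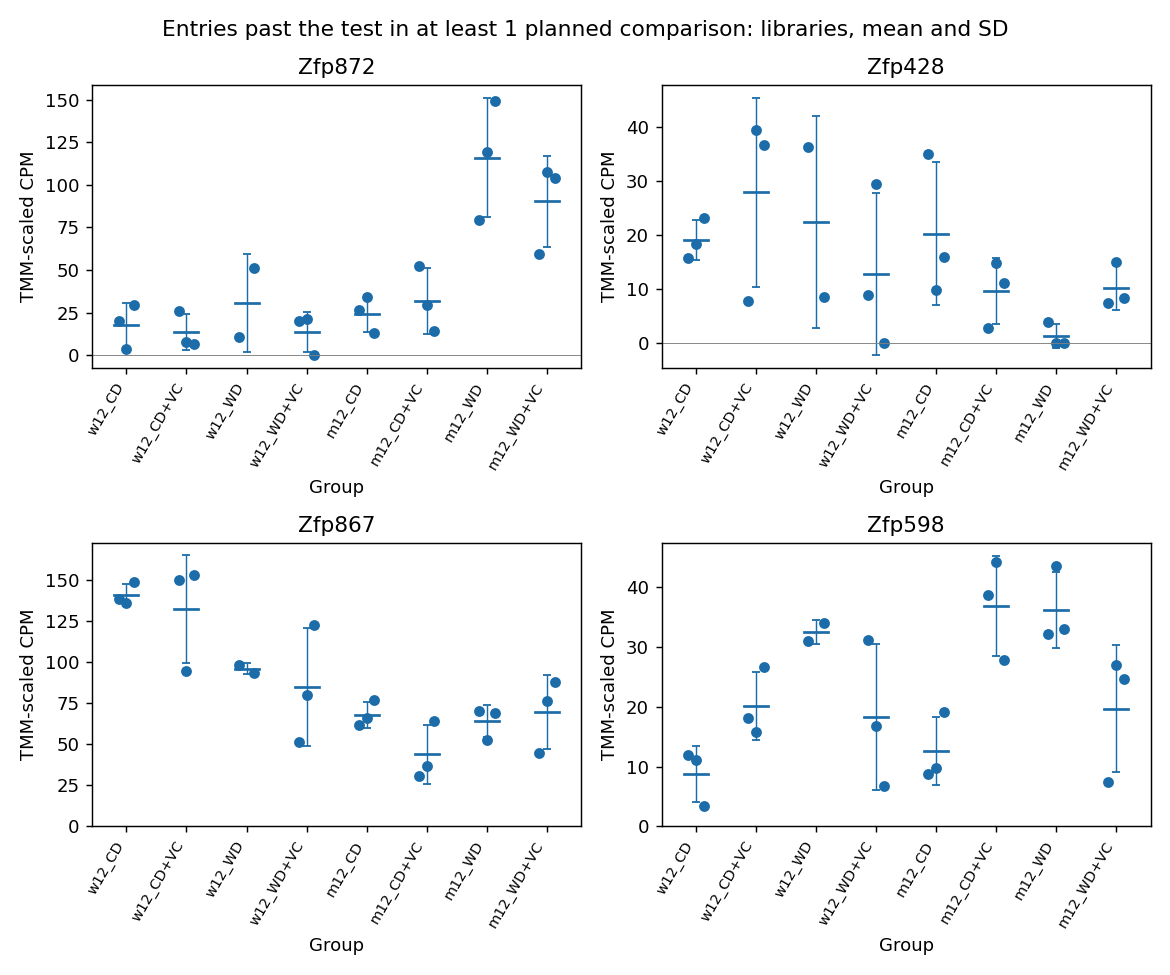
TMM-scaled CPM of Zfp872, Zfp428, Zfp867 and Zfp598 by group, 1 point per library, with the mean (long bar) and SD (short bars), n = 3 and n = 2 in w12_WD. Zfp872 is at 59.4 CPM or more in each of the 6 libraries of m12_WD and m12_WD+VC and at 52.5 CPM or less in the other 17, and Zfp428 is at 0 in 2 of 3 m12_WD libraries.

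The other comparisons at 12 months called 0 members. Western diet with VC called 0 of 19 (1.81% of all entries), VC on control diet 0 (5.22%), VC on Western diet 0 (0.572%) and the interaction of diet and VC 0 (9.81%). At an unadjusted p under 0.05 edgeR found 2, 3, 1 and 4 members of 19, beside 619, 1174, 459 and 1240 of all 4198 entries. DESeq2 called 0 members in each. VC on control diet called 1 member, Zfp598, under RLE size factors, as did the interaction. The 4 with an unadjusted p under 0.05 for the interaction were Zfp335, Zfp428, Zfp598 and Zfp784, with adjusted p between 0.0514 and 0.166. Zfp335 read 762, 634 and 540 CPM in m12_CD, 495, 288 and 435 in m12_CD+VC, 529, 431 and 449 in m12_WD and 616, 563 and 602 in m12_WD+VC. All m12_CD+VC and m12_WD libraries lay below all m12_CD libraries, and m12_WD+VC lay among the latter, with fitted differences from m12_CD of -0.65 (SE 0.247, adjusted p = 0.1) for VC and -0.46 (SE 0.242, adjusted p = 0.165) for diet. Zfp784 had the same order of means, 183 ± 32.2, 114 ± 24.8, 144 ± 20.3 and 172 ± 31.1 CPM (SD, n = 3).

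Time was compared within each diet and exposure. On control diet in air 0 of 19 members were called by edgeR or DESeq2 (1.62% of all entries). At an unadjusted p under 0.05 there were 2 members, beside 612 of all 4198 entries. On control diet with VC 1 was called, Zfp867 (6.38%). On Western diet in air 2 were called, Zfp872 and Zfp428 (14.6%), and on Western diet with VC 1 was called, Zfp872 (0.786%). A mean of the 4 time differences, chosen after the values were seen, called 3 of 19 (25.2%): Zfp872 higher by 1.59 (SE 0.333, adjusted p = 0.000608), Zfp867 lower with a difference of -0.83 (SE 0.185, adjusted p = 0.00118) and Zfp428 lower (adjusted p = 0.0165). The last was lost without w12_WD replicate 1, without w12_WD+VC replicate 2 and in DESeq2, with adjusted p of up to 0.24. The dependence of the diet effect on time, chosen after the values were seen, called 0 members in air (6.67%) and 0 with VC (0.0238%). At an unadjusted p under 0.05 there were 1 and 2 members, beside 945 and 357 of all 4198 entries, and DESeq2 called 0 members.

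Zfp867 is a KRAB zinc finger gene with 10 finger matches on chr11:59461197-59472474, minus strand, with 4 exons and no overlap on the other strand. It was highest at 12 weeks on control diet, at 138, 136 and 149 CPM in w12_CD and 150, 94.5 and 153 CPM in w12_CD+VC. At 12 months it read 61.3, 65.8 and 76.7 CPM in m12_CD and 30.4, 36.9 and 64.1 CPM in m12_CD+VC. Neither pair of groups overlapped. The mean fell from 132 ± 32.9 to 43.8 ± 17.8 CPM with VC (SD, n = 3), a difference of -1.59 (SE 0.372, adjusted p = 0.012, edgeR). This call was lost without w12_CD+VC replicate 3, without m12_CD+VC replicate 1 and in DESeq2, with adjusted p of up to 0.0625. In air the means were 141 ± 6.76 and 67.9 ± 7.88 CPM, a difference of -1.05 (SE 0.348) that did not pass (adjusted p = 0.12). On Western diet the 2 w12_WD libraries read 98.4 and 93.5 CPM and m12_WD had a mean of 63.9 ± 9.69, and w12_WD+VC and m12_WD+VC had means of 84.6 ± 35.9 and 69.5 ± 22.3. Those differences with time were -0.56 (SE 0.39, adjusted p = 0.354) and -0.14 (SE 0.365, adjusted p = 0.96). The dependence of the diet effect on time with VC, 1.45 (SE 0.52), did not pass (adjusted p = 0.466). The direction was lower at 12 months in all 4 conditions, and the call on the mean time difference held in 29 of 29 alternatives.

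**Figure D3:**
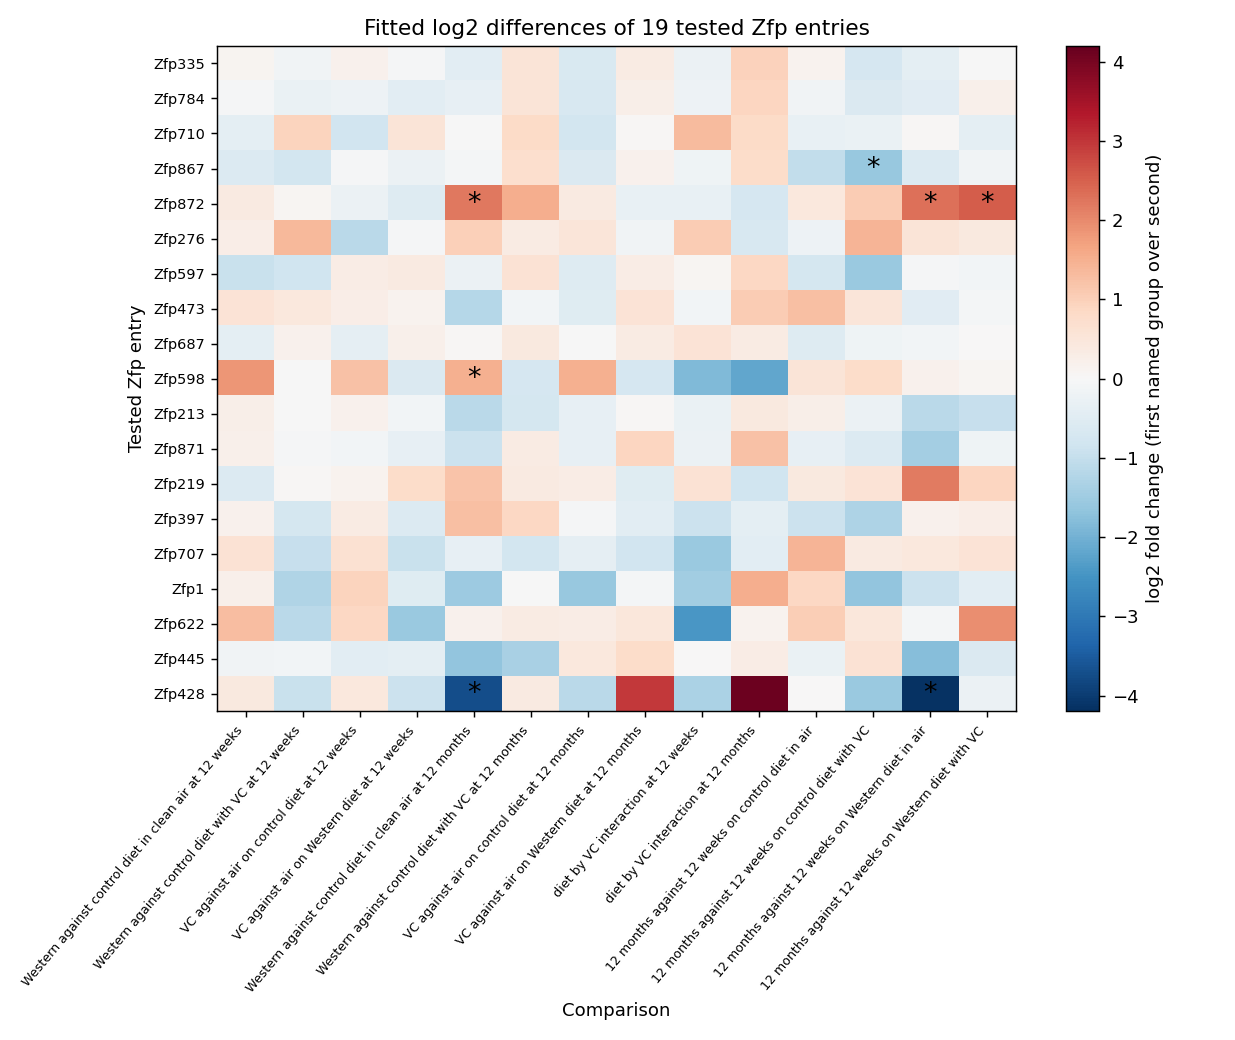
Fitted log2 differences of the 19 tested members (rows, most counted at the top) in the 14 planned comparisons (columns), red for higher and blue for lower in the group named as first, with a star at an adjusted p under 0.05 in edgeR's test. The stars number 3 for Western diet in air at 12 months, 1 for time on control diet with VC, 2 for time on Western diet in air and 1 for time on Western diet with VC, and the columns at 12 weeks have 0.

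Further members were called in no comparison by the edgeR model above. Zfp597 was at 72.6 ± 19.6 CPM in w12_CD+VC and 23.1 ± 4.33 in m12_CD+VC (SD, n = 3), a difference of -1.57 (SE 0.499, adjusted p = 0.0507, edgeR), and it was called with the replicate number as a block. Zfp276 read 12.9, 15.8 and 13.3 CPM in w12_CD+VC, its lowest group mean, and at 36.6 ± 13.8 in m12_CD+VC, a difference of 1.44 (SE 0.528, adjusted p = 0.0851). Zfp219 read 5.18 ± 7.33 CPM in w12_WD (SD, n = 2) and 34.2 ± 9.04 in m12_WD, with a difference of 2.19 (SE 0.897, adjusted p = 0.0966). Zfp710, the third most counted member, ranged from 57.3 ± 16.0 CPM in m12_CD+VC to 142 ± 59.6 in w12_WD+VC, and Zfp687, known from a complex with Zmynd8, from 26.8 ± 23.8 in m12_CD+VC to 40.7 ± 8.29 in w12_CD. For Zfp473 the highest mean was 61.3 ± 12.9 CPM in m12_CD, where the libraries read 74.5, 48.8 and 60.7, and m12_WD read 20.8, 22.9 and 33.0; the groups did not overlap and the difference of -1.20 (SE 0.55) did not pass (adjusted p = 0.106).

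The 8 members too low for the test were fitted once without the filter, among 15541 entries. The smallest adjusted p of edgeR's test was 0.0972, for Zfp511 on Western diet in air at 12 months (difference -1.77), where Zfp384 and Zfp513 also had an unadjusted p under 0.05, with differences of 1.78 and -1.44. Zfp511 had 8, 11 and 9 counts in m12_CD and 2, 2 and 16 in m12_WD, the last from the deepest library of the series. That library, m12_WD replicate 3, was uneven across members: it held 42 counts of Zfp106 and 39 of Zfp707 but 0 of Zfp1 and 0 of Zfp445, while m12_WD replicates 1 and 2 held 7 and 2, 3 and 6, 5 and 11, and 4 and 5 counts of these. Zfp207 had between 0 and 12 counts in each library and Zfp622 between 0 and 22. Zfp36, just under the minimum, had between 0 and 22 counts, and its group means lay between 8.13 ± 0.514 CPM in w12_WD (SD, n = 2) and 19.7 ± 11.3 in w12_WD+VC.

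Partners on the other strand were measured where the table holds them. Zfp335 shares 23.34% of its exon bases with exons of Pcif1, which encodes a cap-adenosine methyltransferase and had 1558 counts. Pcif1 had an adjusted p of 0.18 or more in every comparison of 2 groups by edgeR. Its 12-month means were 226 ± 101 CPM for m12_CD, 201 ± 26.3 for m12_WD+VC, 170 ± 48.4 for m12_CD+VC and 149 ± 40.0 for m12_WD (SD, n = 3). There m12_CD and m12_WD+VC led as they did for Zfp335, but the lowest group for Zfp335 was m12_CD+VC. At 12 weeks the orders differed: Pcif1 had its highest mean in w12_CD, 258 ± 66 CPM, where Zfp335 had its lowest of that time, 585 ± 110 (SD, n = 3). Zfp276 shares 16.64% with Fanca, a subunit of the Fanconi anemia core complex with 6566 counts. Fanca fell with VC on control diet at 12 months by 1.08 on the log2 scale (SE 0.259, adjusted p = 0.0184, edgeR) and with time on control diet with VC by 1.15 (SE 0.26, adjusted p = 0.0101), where Zfp276 had fitted differences of 0.52 and 1.44 that did not pass. Zfp784 lies almost wholly, at 94.8% of its exon bases, under exons of Zfp865, which had 52 counts to its 1274. Zfp219 shares 5.89% with Tmem253, which was lower at 12 months in each of the 4 diet and exposure conditions, with differences between -1.57 and -2.92 and adjusted p between 1.24e-05 and 0.0315, while Zfp219 had fitted differences above 0 in these. How far reads of a partner enter a member's counts was not tested.

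**Figure D4:**
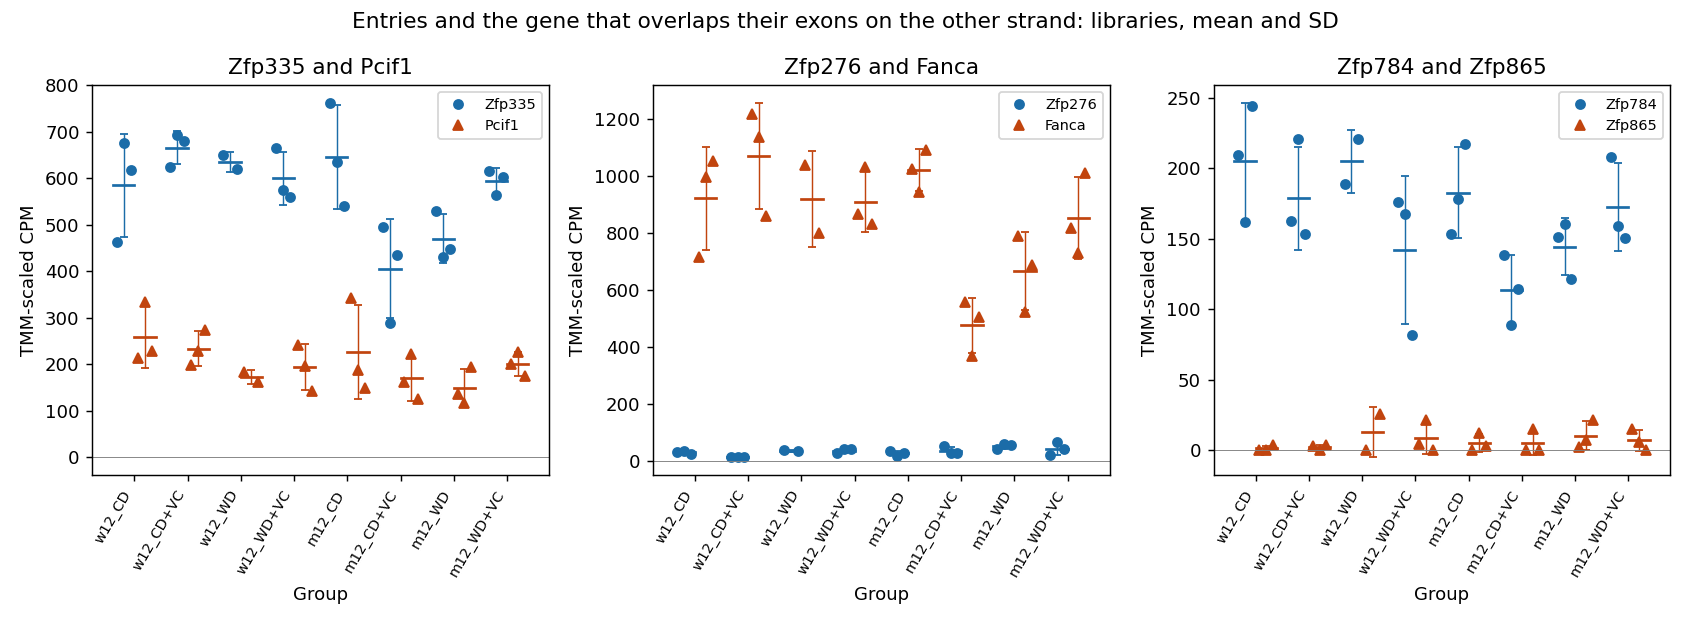
TMM-scaled CPM of Zfp335, Zfp276 and Zfp784 (circles) beside the gene that overlaps their exons on the other strand, Pcif1, Fanca and Zfp865 (triangles), by group, 1 point per library with mean and SD (n = 3, and n = 2 in w12_WD). Fanca is at 369 to 556 CPM in m12_CD+VC and 943 to 1089 in m12_CD, while Zfp276 stays at or under 67.4 CPM in all 23 libraries, and Zfp865 at or under 25.5 CPM.

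Genes that work with zinc finger proteins were described from lists, with no test of the list. Of 27 genes of KRAB corepression and heterochromatin, such as Trim28 and Setdb1, 9 were tested and edgeR called 0 in the 14 planned comparisons. Over all 14 comparisons these 9 genes had 14 unadjusted p under 0.05. Of all 4198 entries, between 170 and 1585 passed that threshold in each planned comparison. DESeq2 called 1 gene of the list for Western diet in air and 1 for VC on control diet, both at 12 months. The share of all entries that DESeq2 called is not given here. The median of the 9 genes for Western diet in air at 12 months was 0.54, beside 0.11 over all entries. In that comparison it was 0.48 over entries without an overlap on the other strand and -0.16 over those with one. RLE size factors moved the median of all entries by 0.39. The part of overlap and scaling in the lists' medians was not tested. Suv39h2, a histone methyltransferase, was lower in the mean of the time differences with -0.55 (adjusted p = 0.0487, edgeR). It was 1 of 9, beside 25.2% of all entries, and DESeq2 called 0 of the list there. Of the lists that follow, edgeR called Edf1 (0.82, adjusted p = 0.00038) and Eif4e2 (0.98, adjusted p = 0.0354) higher in that mean. Zbtb5 (-0.645, adjusted p = 0.00381) and Zbtb45 (-0.638, adjusted p = 0.00915) were lower by the same test. Of 19 genes of mRNA decay around the CCCH proteins, 5 were tested and 1, Cnot3, a subunit of the deadenylase complex, was lower on Western diet in air at 12 months with a difference of -1.43 (adjusted p = 0.00401) and over time on Western diet in air with -1.24 (adjusted p = 0.034), by edgeR and against 24.5% and 14.6% of all entries called. DESeq2 called 0 of this list in the planned comparisons, so both calls were lost there. Of 22 immediate early genes 5 were tested, and edgeR and DESeq2 called 0 in the planned comparisons. Over these 5 genes and 14 comparisons there were 13 unadjusted p under 0.05. The range over all entries at that threshold, given for the first list, is the background. Of 14 genes of ribosome quality control and of the large ribosomal subunit, 13 were in the table, 7 were tested and 1, Edf1, which binds collided ribosomes, was higher over time on control diet with VC by 1.18 (adjusted p = 0.0286, edgeR), where 6.38% of all entries and, by DESeq2, also 1 gene of the list were called. Of 73 genes of the Zbtb, Zkscan, Zscan, Znf and Klf families, 12 were tested, and 0 rose and 4 fell on Western diet in air at 12 months: Zbtb11 with -1.64 (adjusted p = 0.000755), the glucocorticoid-responsive Klf9 with -1.44 (adjusted p = 0.0175), Zkscan17 with -0.94 (adjusted p = 0.0316) and Zbtb32 with -0.92 (adjusted p = 0.0347). These 4 of 12 stand beside 24.5% of all entries called by edgeR, and DESeq2 called 1 of the list. The median of the 12 was -0.64, beside -0.25 over the 19 Zfp-number members in the same comparison. By edgeR, Zbtb11 was higher in the interaction at 12 months by 1.72 (adjusted p = 0.0268). Zbtb5 was lower over time on control diet with VC, with -1.04 (adjusted p = 0.0473). Over time on Western diet in air Zbtb45 (-1.22, adjusted p = 0.0226), Klf9 (-1.67, adjusted p = 0.0247) and Zkscan17 (-1.03, adjusted p = 0.0495) were lower. DESeq2 called 0 of the list in these comparisons, beside 9.81%, 6.38% and 14.6% of all entries by edgeR.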

How the data were processed

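Total liver RNA was extracted with Trizol, depleted of ribosomal RNA, made into libraries with a TruSeq kit and read on a HiSeq2500 instrument, per the labels' protocols. Trimmomatic 0.38, HISAT2 2.1.0, HTSeq 0.11.2 and mm10 are named in the submitters' processing notes; the sources used here do not give the annotation, strand setting or filters. The table holds raw counts per gene symbol as deposited by the authors. The deposited per-sample log2 values equal log2(count / size factor + 1) within 1e-06 in 586104 of 586104 values (0 differed), and were not tested.

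Groups came from the labels. All 24 libraries entered 1 edgeR 4.0.16 model (R 4.3.3) with 8 group means, TMM, filterByExpr (4198 entries), quasi-likelihood tests and Benjamini-Hochberg adjustment. The common biological coefficient of variation was 0.317. A standard error is the fitted difference over the root of its F statistic. Symbols were placed on GENCODE M21 (GRCm38) by name for 23336 entries and by synonym for 668, and 417 were not placed. Other-strand overlaps were found with bedtools 2.31.1 and require 1 shared exon base. Promoters are RefSeq's. Tables and plots were made in Python 3.11.15 with pandas 2.3.3 and matplotlib 3.10.9. The fit was tested on simulated data.

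The members and lists were chosen with earlier results of these data known. Named are the members called in any planned comparison, the 10 with most counts, those with known roles outside repression, and those next to the count minimum; members with the smallest adjusted p above 0.05 and partners were added after values were seen. Alternatives were RLE size factors, no filter, TMM over entries without an overlap, DESeq2 1.42.0, the replicate block and each library left out. No 2 libraries held identical counts.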

Additional observations from a re-analysis of the deposited data

How the results depend on the processing

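Depth limits these results, as 18 of 27 members had under 200 counts, and 8 were too low to test. For Western diet in air at 12 months, where 3 members were called, no filter, the replicate block and DESeq2 gave 2, and RLE size factors and TMM over entries without an overlap gave 4. For any difference among groups, also 3, the block and DESeq2 gave 2 and both scalings 4. Counts of called members that moved by over 1.5 times follow. RLE size factors gave 1 for VC on control diet at 12 months, 1 for the interaction of diet and VC at 12 months and 5 for the mean time difference. TMM over entries without an overlap gave 1 for the interaction at 12 months, 2 for time on control diet with VC, 1 for time on Western diet in air and 1 for diet by time in air. The replicate block gave 2 for time on control diet with VC and 5 for the mean time difference, and DESeq2 gave 0 for time on control diet with VC and 1 for time on Western diet in air. A minimum of 50 summed counts would give 62 members and one of 200 would give 9. With each library left out in turn, called members ran from 2 to 4 for Western diet in air at 12 months, 0 to 1 for the interaction at 12 months, 0 to 2 for time on control diet with VC, 0 to 3 for time on Western diet in air, 0 to 1 for time on Western diet with VC, 0 to 1 for diet by time in air, 3 to 6 for the mean time difference and 2 to 4 for any difference among groups, and were 0 to 0 elsewhere. The causes were not tested. Same-numbered libraries had a mean correlation of 0.00405 between their deviations from group means (-0.326 to 0.249), and other-numbered ones -0.00215. Of 23 libraries, 9 correlated best with their own number. With so few libraries in a group and low depth, these values cannot decide whether replicate numbers pair some of the libraries.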
